A study of Mus musculus with 20 samples.

Results

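Complement is a cascade of plasma and cell-surface proteins that tags microbes and damaged cells for removal. C1q recognises antibody complexes and dying cells and starts the classical pathway, C3 is the central component at which all pathways meet, factor B and properdin drive the alternative pathway that amplifies C3 cleavage, and the released fragments C3a and C5a call in leucocytes through their own receptors. The liver makes most of the circulating proteins, macrophages make C1q and properdin, and the intestinal lining makes several components locally while shielding itself with surface regulators such as CD55. The 9 genes described here are the C1q chains C1qa, C1qb and C1qc, the alternative pathway components C3, Cfb (factor B) and Cfp (properdin), the anaphylatoxin receptors C3ar1 and C5ar1, and the regulator Cd55. In the tables they carry the names C1QA, C1QB, C1QC, C3, CFB, CFP, C3AR1, C5AR1 and CD55. They were chosen by symbol among the 23361 rows of each deposited table, and all 9 were found in both.

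RNA was sequenced from the ileum, where the small intestine ends, and from macrophages grown out of bone marrow, taken from wild-type Gpr35+/+ mice and from Gpr35-/- mice that lack the G protein-coupled receptor GPR35 in every cell. There were 5 libraries for each genotype and tissue, 20 in all, with no treatment. The mice were C57BL/6, matched for age and gender and 6 to 12 weeks of age, the knockout is global and came from 1 repository clone, and breeding through heterozygotes gave littermate controls. The comparison of genotypes within each tissue asks what loss of GPR35 does to these genes, and the levels per tissue show where each is expressed.

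Gpr35 itself followed its labels, at 2.49 to 3.85 FPKM in the 5 Gpr35+/+ and 0.0097 to 0.0408 FPKM in the 5 Gpr35-/- ileum libraries, and at 2.51 to 3.32 and 0.0952 to 0.132 FPKM in macrophages. FPKM is a fragment count scaled for transcript length and library size. Total reads are not part of the tables, and depth relative to the first Gpr35+/+ library of a tissue, from what 1 read is worth in low genes, ranged from 0.997 to 1.86 in Gpr35+/+ and from 1.57 to 2.52 in Gpr35-/- ileum, and from 0.782 to 1.02 over all macrophage libraries. Of 10 macrophage markers the summed level was 3740 to 4110 FPKM in the macrophage libraries and 44.2 to 94.4 FPKM in ileum, although the macrophage lysozyme Lyz2 was listed at 0 in the macrophage table. Of 9 enterocyte markers Fabp2, Apoa1 and Anpep were listed at 0 in all ileum libraries, and the other 6 summed to 15200 to 38200 FPKM there. Intestinal transcripts were also found in 7 of the 10 macrophage libraries. Over 11 enterocyte, goblet and Paneth cell genes their median level was 0.079% to 0.321% of that in ileum in the 5 Gpr35+/+ libraries and in Gpr35-/- libraries 1 and 5, and 0.000543% or less in Gpr35-/- libraries 2, 3 and 4. These 11 genes were kept for a mean of at least 100 FPKM in ileum and under 1 FPKM in each of Gpr35-/- libraries 2, 3 and 4. The low share in those 3 libraries was thus partly fixed by the choice of genes. Results in macrophages are therefore given also without those 3 libraries, which leaves only Gpr35-/- libraries 1 and 5 in that group.

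The C1q genes lie next to each other on the minus strand of chromosome 4 in GRCm38, C1qb from 136880129 to 136886187, C1qc from 136889804 to 136893065 and C1qa from 136895917 to 136898803. C3 spans bases 57203970 to 57228136 of chromosome 17. Since the C1q chains were correlated across libraries and C3 had the largest ratio of highest to lowest library of the 9 genes within a genotype in ileum, the 250 bases before the RefSeq start of C1qb (chr4:136886201-136886450), C1qc (chr4:136892915-136893164) and C3 (chr17:57228137-57228386), all on the minus strand of GRCm38.p6, are shown, with capitals for letters that match a motif searched on both strands.
C1qb: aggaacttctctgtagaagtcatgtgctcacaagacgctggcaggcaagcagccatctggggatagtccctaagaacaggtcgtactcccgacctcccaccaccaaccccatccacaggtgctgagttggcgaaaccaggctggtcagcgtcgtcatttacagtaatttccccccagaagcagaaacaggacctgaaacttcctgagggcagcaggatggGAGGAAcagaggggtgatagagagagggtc
C1qc: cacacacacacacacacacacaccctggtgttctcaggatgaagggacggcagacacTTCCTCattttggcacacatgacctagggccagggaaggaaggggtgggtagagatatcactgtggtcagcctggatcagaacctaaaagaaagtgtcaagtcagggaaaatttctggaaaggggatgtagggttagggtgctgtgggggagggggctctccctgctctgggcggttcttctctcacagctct
C3: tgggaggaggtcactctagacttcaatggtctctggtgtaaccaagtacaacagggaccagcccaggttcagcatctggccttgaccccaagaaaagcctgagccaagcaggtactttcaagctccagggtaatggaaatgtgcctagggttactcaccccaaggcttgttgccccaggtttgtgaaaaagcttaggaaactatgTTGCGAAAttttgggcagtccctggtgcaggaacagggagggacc
GAGGAA, a core recognised by the myeloid factor PU.1, was found in C1qb on the gene's own strand at bases -30 to -25 from the start and in C1qc on the opposite strand at bases -193 to -188. It occurs in 23.3% of the 32851 promoter windows of this length. TTGCNNAA, recognised by C/EBP factors, was found in C3 at bases -45 to -38 and occurs in 9.56% of the windows. TGACTCA, the AP-1 motif (4.46% of windows), was found in none of the 3 sequences. Among the other members searched, C3ar1 held TGACTCA at bases -22 to -16 and neither of the other motifs. Cfp, C5ar1 and Cd55 held none of these motifs, so GAGGAA was absent from Cfp, C3ar1 and C5ar1, which were also higher in macrophages. Promoter sequence was matched for 7 of the 9 genes, and C1qa and Cfb had no entry. The C1qc window, set by its RefSeq start, lies partly inside the gene bounds given above, so the C1qc distances depend on the start used.

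In Gpr35+/+ mice the mean level of 7 of the 9 was higher in the macrophage table than in the ileum table, and for 6 of them every macrophage library lay above every ileum library, as for 34% of the 23334 rows named alike in both tables. Factor B and Cd55 were the opposite, with every ileum library above every macrophage library, as for 18.9% of those rows. C3 overlapped. The tables were scaled separately, so these levels are side by side and were not tested.

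In Gpr35+/+ macrophages the order ran from C1qb (528 ± 69.2 FPKM, SD, n = 5) through C3ar1 (404 ± 24.5), C1qc (347 ± 43.4), Cfp (292 ± 38.4), C5ar1 (169 ± 10.4), C1qa (52.1 ± 11.2), C3 (9.93 ± 2.58) and Cfb (2.77 ± 0.791) to Cd55 (0.135 ± 0.0538). The ranges of C3ar1 and C1qc overlapped, as did those of C1qc and Cfp, and the other neighbours in this order did not overlap. C1qb stood at the 99.2nd percentile of the rows above 0, and C3ar1 at the 98.8th. In Gpr35+/+ ileum the order was Cfb (111 ± 20.4 FPKM, SD, n = 5), Cd55 (51.2 ± 44.1), C1qa (8.58 ± 2.58), C1qb (7.81 ± 2.63), C1qc (6.42 ± 2.09), C3 (5.60 ± 4.02), Cfp (1.44 ± 0.364), C3ar1 (0.232 ± 0.150) and C5ar1 (0.169 ± 0.0866). There the ranges separated only between Cd55 and C1qa and between Cfp and C3ar1, and Cfb stood at the 95.3rd percentile. The order in Gpr35-/- libraries was the same in macrophages, and in ileum it differed only in that C5ar1 and C3ar1, whose ranges overlapped, changed places.

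**Figure D1:**
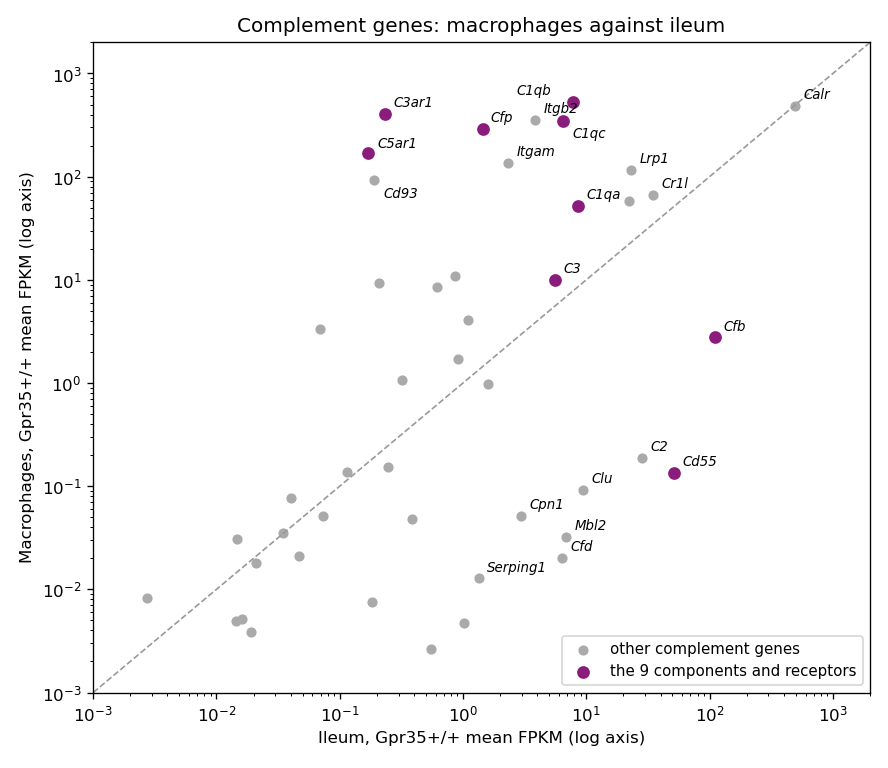
Mean FPKM of complement genes in the 5 Gpr35+/+ macrophage libraries (vertical, log axis) against the 5 Gpr35+/+ ileum libraries (horizontal, log axis), with 1 point for each of 46 genes above 0 in both and a dashed line of equal level. Purple points are the 9 components and receptors, of which 7 lie above the line, and Cfb and Cd55 lie below it.

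No member passed the test between genotypes in either tissue. In ileum 0 of the 7 members above the filter on low values (0.5 FPKM in at least 5 libraries) had an adjusted p under 0.05 in limma, against 0.0432% of the 11574 genes tested, and 0 had an unadjusted p under 0.05, against 4.34%. In macrophages 0 of 8 passed, against 0.0525% of 11437 genes, while 2 of 8 had an unadjusted p under 0.05, both lower in Gpr35-/-, against 10.5% of genes in either direction and 5.88% in that direction. The median log2 change of the members tested was -0.04 in ileum and -0.16 in macrophages, beside 0.01 and 0.003 over all genes. Of the 7 estimates in ileum 4 were below 0, as were 45.6% of all estimates there. All 8 estimates in macrophages were below 0, as were 48.3% of all estimates in that tissue. The count was 6 of 8 without Gpr35+/+ library 4. It was 7 of 8 with quantile normalization, without Gpr35-/- library 1, and without Gpr35-/- libraries 2, 3 and 4. The members are not independent, as C1qb and C1qc had a Pearson r of 0.991 there. In bulk samples fewer cells of a type and less RNA per cell cannot be told apart.

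**Figure D2:**
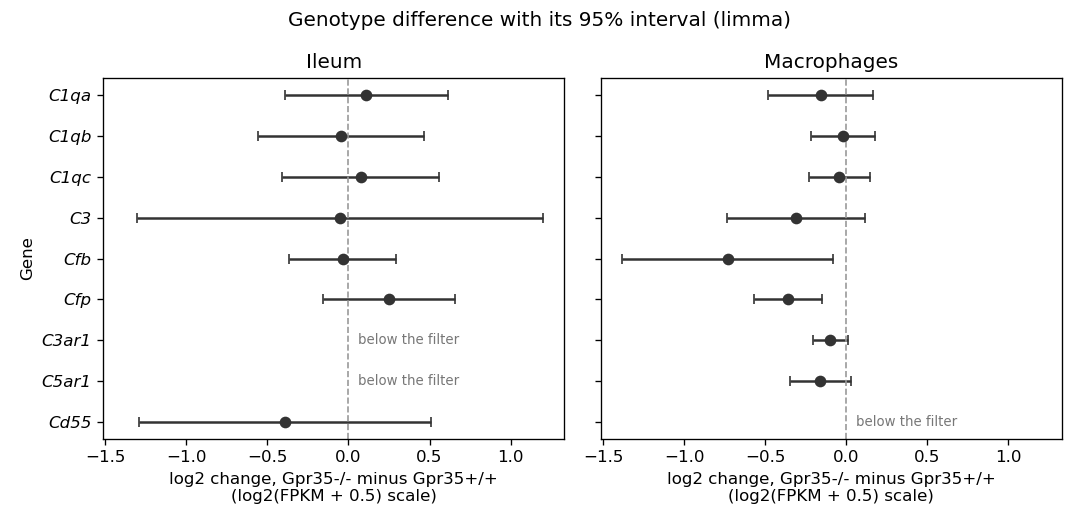
Difference between genotypes (horizontal, log2 change on the log2(FPKM + 0.5) scale, Gpr35-/- minus Gpr35+/+) for each gene (vertical) in ileum (left) and macrophages (right), with points for the limma estimate and bars for its 95% interval. The intervals of Cfp (-0.57 to -0.15) and Cfb (-1.38 to -0.08) in macrophages leave out 0 before adjustment, and all others include it.

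The C1q chains, which assemble together into the C1q protein, were abundant in macrophages of both genotypes. C1qb was at 458, 525, 494, 642 and 522 FPKM in the Gpr35+/+ and 457, 536, 581, 526 and 495 FPKM in the Gpr35-/- libraries. C1qc was at 302, 342, 331, 419 and 339 FPKM in Gpr35+/+ and 297, 340, 375, 343 and 324 FPKM in Gpr35-/-. The highest library was Gpr35+/+ library 4 for both genes, the lowest was Gpr35-/- library 1, and the groups overlapped. C1qa was at 43.3, 48.0, 51.1, 71.4 and 46.6 FPKM in Gpr35+/+ and 35.5, 44.4, 56.5, 47.6 and 47.9 FPKM in Gpr35-/-, with the same libraries at its ends. The log2 changes were -0.02 for C1qb (95% interval -0.22 to 0.18), -0.04 for C1qc (-0.23 to 0.15) and -0.16 for C1qa (-0.48 to 0.17). Without Gpr35-/- libraries 2, 3 and 4 they were -0.14, -0.15 and -0.31 (adjusted p = 0.68, 0.66 and 0.65 in limma). For C1qb and C1qc a difference of more than 0.23 on the log2 scale lies outside the 95% interval.

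In ileum the C1q chains were lower, with Gpr35+/+ means below those of macrophages by a factor of 6.07 for C1qa, 67.6 for C1qb and 54.1 for C1qc, and they varied more, with a coefficient of variation of 22.5% to 33.7% against 8.48% to 21.5%. C1qa was at 7.57, 9.50, 5.99, 12.6 and 7.24 FPKM in Gpr35+/+ and 11.2, 5.18, 9.41, 11.4 and 9.46 FPKM in Gpr35-/-. C1qb was at 5.94, 9.34, 5.00, 11.5 and 7.26 FPKM, and at 6.97, 4.50, 8.91, 7.81 and 8.96 FPKM. C1qc was at 5.69, 7.62, 3.77, 9.24 and 5.76 FPKM, and at 7.22, 4.36, 8.10, 7.59 and 6.02 FPKM. Gpr35+/+ library 4 was highest for all 3 chains, and Gpr35+/+ library 3 and Gpr35-/- library 2 were the lowest pair. The log2 changes were 0.11 (-0.39 to 0.61), -0.05 (-0.56 to 0.46) and 0.07 (-0.41 to 0.56) for C1qa, C1qb and C1qc, and every interval was wider than its counterpart in macrophages.

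The chains kept different proportions in the tissues. In macrophages C1qa stood at 0.0778 to 0.111 of the FPKM of C1qb over the 10 libraries (median 0.093), and in ileum at 0.997 to 1.60 (median 1.13). C1qc stood at 0.633 to 0.670 of C1qb in macrophages and 0.671 to 1.04 in ileum. The C1qa ratio of every macrophage library thus lay below that of every ileum library, in both genotypes. The highest median share of intestinal transcripts in a macrophage library, 0.321% of the ileum level over 11 genes whose single values reached 0.695%, multiplied by the mean of C1qa in ileum corresponds to 0.0288 FPKM. The part of transcript models and read assignment in these ratios was not tested.

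**Figure D3:**
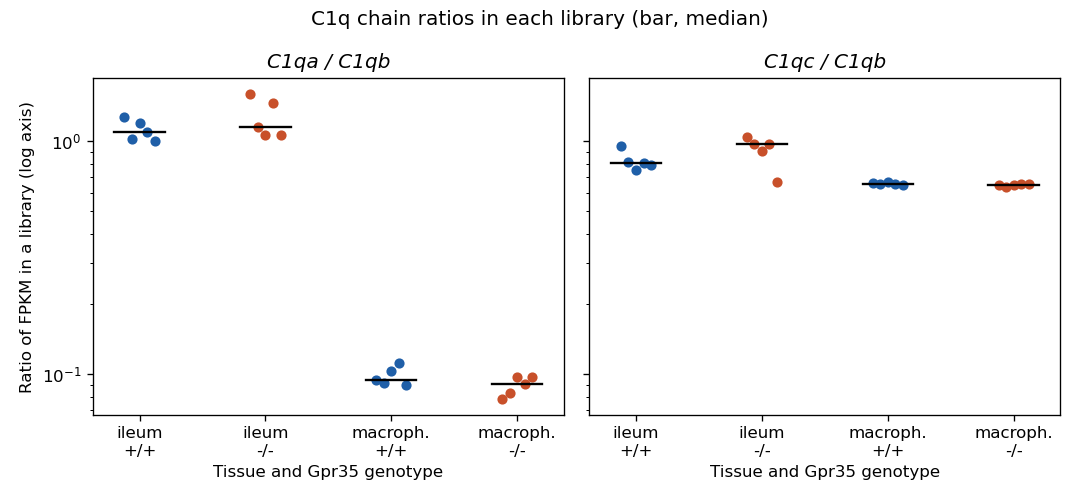
Ratio of C1qa (left) and C1qc (right) to C1qb FPKM in each library (vertical, log axis) by tissue and Gpr35 genotype (horizontal), with 1 point a library and a bar at the median of 5. The C1qa ratio lies between 0.997 and 1.60 in ileum and between 0.0778 and 0.111 in macrophages, and the genotypes overlap in each tissue.

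Across the 10 libraries of a tissue the levels of the chains were correlated. In macrophages C1qb and C1qc had a Pearson r of 0.991 (adjusted p = 0.00016 by permutation) and a Spearman rho of 0.952 (adjusted p = 0.00088), and r was 0.978 without the 2 libraries farthest from the median. C1qa had r = 0.881 with C1qb (adjusted p = 0.0019, rho = 0.636, adjusted p = 0.063) and r = 0.931 with C1qc (adjusted p = 0.001, rho = 0.733, adjusted p = 0.026), and without the 2 farthest libraries these were 0.635 and 0.765. In ileum r was 0.849 for C1qa and C1qb (adjusted p = 0.0029, rho = 0.745, adjusted p = 0.026), 0.913 for C1qa and C1qc (adjusted p = 0.001, rho = 0.818, adjusted p = 0.015) and 0.886 for C1qb and C1qc (adjusted p = 0.0016, rho = 0.867, adjusted p = 0.0087), and without the 2 farthest libraries 0.594, 0.822 and 0.806. These are 6 of 8 relations computed over 10 libraries and adjusted together, and with the genotype means removed r was 0.869 to 0.994. Within the 7 macrophage libraries that carry intestinal transcripts r was 0.918 to 0.996.

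The genes whose levels in ileum were most like the mean of the C1q chains over the 10 libraries, among 11567 compared, were Apoe (r = 0.976), the carrier of lipids that macrophages secrete, the nuclease gene Dnase1l3 (0.966), 1700011H14Rik (0.951), Bex4 (0.950) and Csf1r (0.942), the receptor on which macrophages depend. Mpeg1, another macrophage gene, had r = 0.930, whereas Cd14 had 0.358 and Mertk -0.60. In macrophages, among 11429 genes, the most like were Trafd1 (0.938), Trim12a (0.929), Cdkn1a (0.928), Stard3 (0.923) and Trim12c (0.919). These r values describe the same 10 libraries of a tissue, which share a scaling, and carry no test.

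C3, the hub of the cascade, differed between libraries far more than between genotypes in ileum. It was at 1.48, 4.45, 6.18, 3.74 and 12.1 FPKM in Gpr35+/+ and 4.26, 1.33, 6.14, 3.70 and 11.6 FPKM in Gpr35-/- ileum. The 5 values of each genotype spanned a factor of 8.20 and 8.72, with 1 library of each genotype above 11 FPKM, and the groups overlapped throughout. The log2 change was -0.05 with a 95% interval of -1.30 to 1.20 (adjusted p = 1 in limma). The genes most like C3 over these 10 libraries were Dcn (r = 0.972), which encodes the matrix proteoglycan decorin of fibroblasts, Igfbp6 (0.966), Upk3b (0.960), a gene of mesothelium, Rarres2 (0.947), which encodes the chemoattractant chemerin, and Cplx2 (0.944). Dcn was at 1.5, 4.16, 7.18, 3.62 and 10.2 FPKM in Gpr35+/+ and 4.46, 1.10, 5.51, 2.32 and 14.8 FPKM in Gpr35-/-, with its lowest and highest library in each genotype the same as for C3. Over 6 fibroblast markers the summed level ran from 3.12 to 14.0 FPKM in Gpr35+/+ and 1.96 to 19.0 FPKM in Gpr35-/- ileum, with Dcn alone giving 10.2 of the 14.0 and 14.8 of the 19.0 FPKM, and the other fibroblast marker above the filter, Col3a1, had r = 0.445 with C3. Over 6 smooth muscle markers the summed level ran from 5.87 to 42.5 and from 3.37 to 28.9 FPKM, none of the 12 being at 0 throughout. The part of these cells in the C3 values was not tested.

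In macrophages C3 was at 6.13, 10.5, 8.90, 11.2 and 12.9 FPKM in Gpr35+/+ and 5.68, 7.52, 8.76, 7.34 and 9.83 FPKM in Gpr35-/-. The groups overlapped, with 3 Gpr35+/+ libraries above every Gpr35-/- library. The log2 change was -0.31 (95% interval -0.73 to 0.12, adjusted p = 0.65 in limma), and -0.35 without Gpr35-/- libraries 2, 3 and 4 (adjusted p = 0.69). The genes most like C3 here were Chd2 (r = 0.951), Cysltr2 (0.936), a receptor for cysteinyl leukotrienes, Degs2 (0.933), Ifitm6 (0.930) and Cd86 (0.929), a costimulatory ligand for T cells.

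**Figure D4:**
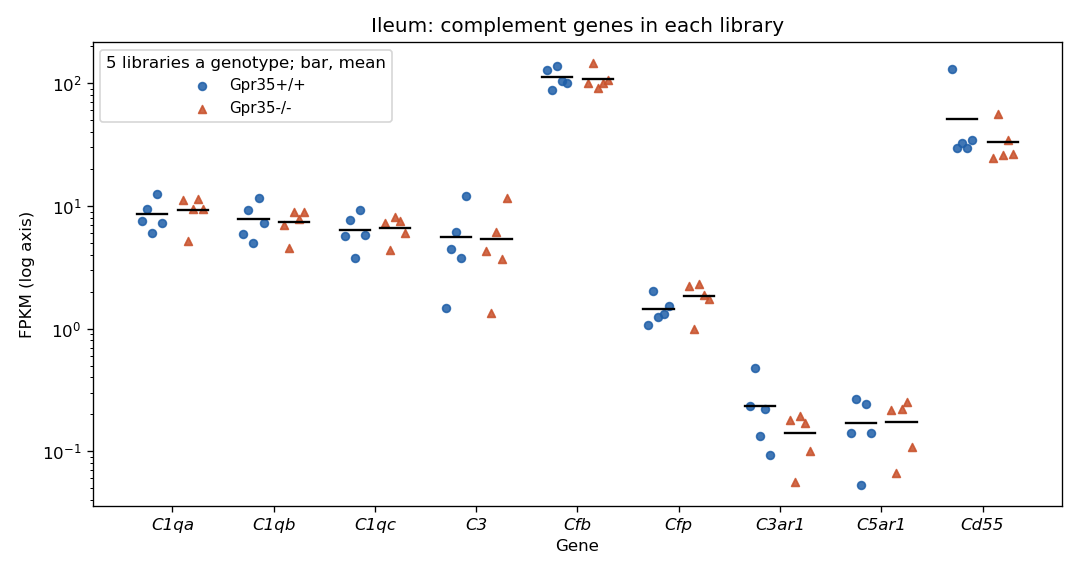
FPKM of each gene (horizontal) in each ileum library (vertical, log axis), with circles for the 5 Gpr35+/+ and triangles for the 5 Gpr35-/- libraries and bars at the means. The genotypes overlap for all 9 genes, C3 spreads from 1.33 to 12.1 FPKM, and 1 Gpr35+/+ library stands at 130 FPKM for Cd55.

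Factor B, the protease subunit of the alternative pathway convertase, was the highest member in ileum and had the largest estimate in macrophages. Cfb lies on the minus strand of chromosome 17 of GRCm38 from 34856374 to 34862518, next to C2 (34862604 to 34898265), and the gene model Gm20547 overlaps both on the same strand, so reads could be divided among them and the values are uncertain. In ileum Cfb was at 128, 87.9, 137, 105 and 99.8 FPKM in Gpr35+/+ and 99.7, 145, 91.2, 100 and 107 FPKM in Gpr35-/-, a log2 change of -0.04 (95% interval -0.37 to 0.29). In macrophages it was at 1.89, 3.17, 2.07, 3.80 and 2.90 FPKM in Gpr35+/+ and 1.04, 0.959, 1.55, 0.888 and 3.58 FPKM in Gpr35-/-. There 4 Gpr35-/- libraries lay below every Gpr35+/+ library, and Gpr35-/- library 5 lay above 4 of the 5. The log2 change was -0.73 (standard error 0.29, adjusted p = 0.42 in limma), and without Gpr35-/- library 5 it was -1.0 (adjusted p = 0.063).

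Levels of response genes in macrophages are set beside those of Cfb. The summed level of 9 type I interferon response genes was 607, 620, 616, 800 and 653 FPKM in Gpr35+/+ and 350, 417, 674, 427 and 739 FPKM in Gpr35-/- libraries 1 to 5. Gpr35-/- libraries 1, 2 and 4 had the lowest sums and the lowest Cfb. Gpr35-/- library 3 departed from this. Its sum lay above all Gpr35+/+ libraries but library 4, while its Cfb of 1.55 FPKM lay below every Gpr35+/+ library. Of the 9 genes all had estimates below 0, against 48.3% of all genes tested. Of them 1 had an unadjusted p under 0.05 in that direction, against 5.88%, and 0 were called. The summed level of 10 interferon gamma response genes was 305, 338, 315, 361 and 344 FPKM in Gpr35+/+ and 252, 272, 331, 277 and 337 FPKM in Gpr35-/-. Of the 8 above the filter 7 had estimates below 0, 3 with an unadjusted p under 0.05. The 1 with an estimate above 0 also had an unadjusted p under 0.05, and 0 were called. For the 12 acute phase and NF-kB response genes the sums overlapped, at 86.3 to 110 FPKM in Gpr35+/+ and 78.8 to 104 FPKM in Gpr35-/-. The median share of intestinal transcripts, multiplied by the mean of Cfb in ileum, corresponds to 0.0869 to 0.353 FPKM in Gpr35+/+ and to 0 to 0.223 FPKM in Gpr35-/- libraries. Single values of the 11 genes behind that median reached 0.695% of the ileum level in Gpr35+/+ and 0.339% in Gpr35-/- libraries, so the intestinal part of Cfb is uncertain. Without Gpr35-/- libraries 2, 3 and 4 the log2 change of Cfb was -0.35 (adjusted p = 0.75). This leaves Gpr35-/- libraries 1 and 5, and so rests in good part on library 5, the highest of that group. The part of the interferon response in the Cfb values was not tested.

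C3 and Cfb went together in macrophages and not detectably in ileum. In macrophages r was 0.769 (adjusted p = 0.013 by permutation) and rho 0.782 (adjusted p = 0.021), with r = 0.744 without the 2 farthest libraries, 0.698 with the genotype means removed (adjusted p = 0.028) and 0.853 within the 7 libraries that carry intestinal transcripts. In ileum r was -0.494 (adjusted p = 0.14) and rho -0.333 (adjusted p = 0.35), and without the 2 farthest libraries r was -0.21. The FPKM of Cfb was 8.23 to 109 times that of C3 in ileum and 0.121 to 0.364 times that of C3 in macrophages.

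Properdin, the protein that stabilises the alternative pathway convertase, had the smallest p of the members. Cfp lies on the minus strand of chromosome X of GRCm38 from 20925454 to 20931555. In macrophages it was at 246, 310, 267, 345 and 294 FPKM in Gpr35+/+ and 200, 217, 250, 219 and 251 FPKM in Gpr35-/-. Gpr35+/+ library 1 lay just below Gpr35-/- libraries 3 and 5, and the other 4 Gpr35+/+ libraries lay above every Gpr35-/- library. The means were 292 ± 38.4 and 227 ± 22.2 FPKM (SD, n = 5 each), the log2 change was -0.36 (standard error 0.09), and the adjusted p of 0.27 in limma did not pass. With libraries weighted by their quality it passed, at an adjusted p of 0.045, in a setting that called 128 genes instead of 6. Without Gpr35-/- libraries 2, 3 and 4 the log2 change was -0.37 (adjusted p = 0.65).

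Granulocyte precursors also make properdin, and their 7 markers found in the table summed to 638 to 1420 FPKM in Gpr35+/+ and 777 to 1180 FPKM in Gpr35-/- macrophage libraries, with none at 0 throughout and estimates of both signs. In ileum Cfp was at 1.08, 2.01, 1.24, 1.31 and 1.54 FPKM in Gpr35+/+ and 2.23, 0.984, 2.33, 1.87 and 1.74 FPKM in Gpr35-/-, a log2 change of 0.25 (95% interval -0.16 to 0.66, adjusted p = 1). Its lowest library there was Gpr35-/- library 2, which was also the lowest for C3 and for C1qa and C1qb.

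The anaphylatoxin receptors were genes of the macrophage table. C3ar1, the receptor for C3a, was at 375, 429, 395, 430 and 391 FPKM in Gpr35+/+ and 354, 374, 394, 371 and 394 FPKM in Gpr35-/- macrophages. It varied least of the 9 genes in macrophages, with coefficients of variation of 6.07% and 4.45%, and its log2 change was -0.10 (95% interval -0.20 to 0.01, adjusted p = 0.53), or -0.11 without Gpr35-/- libraries 2, 3 and 4. C5ar1, the receptor for C5a, was at 174, 163, 155, 175 and 180 FPKM in Gpr35+/+ and 154, 135, 140, 144 and 189 FPKM in Gpr35-/-. For C5ar1 4 Gpr35-/- libraries lay below every Gpr35+/+ library and Gpr35-/- library 5 lay above all of them. The log2 change was -0.16 (95% interval -0.35 to 0.03, adjusted p = 0.57), and without Gpr35-/- libraries 2, 3 and 4, with library 5 kept, it was 0.02. In ileum both fell under the filter and were not tested, C3ar1 at 0.0932 to 0.478 FPKM in Gpr35+/+ and 0.056 to 0.195 FPKM in Gpr35-/-, and C5ar1 at 0.0531 to 0.266 and 0.0671 to 0.253 FPKM.

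**Figure D5:**
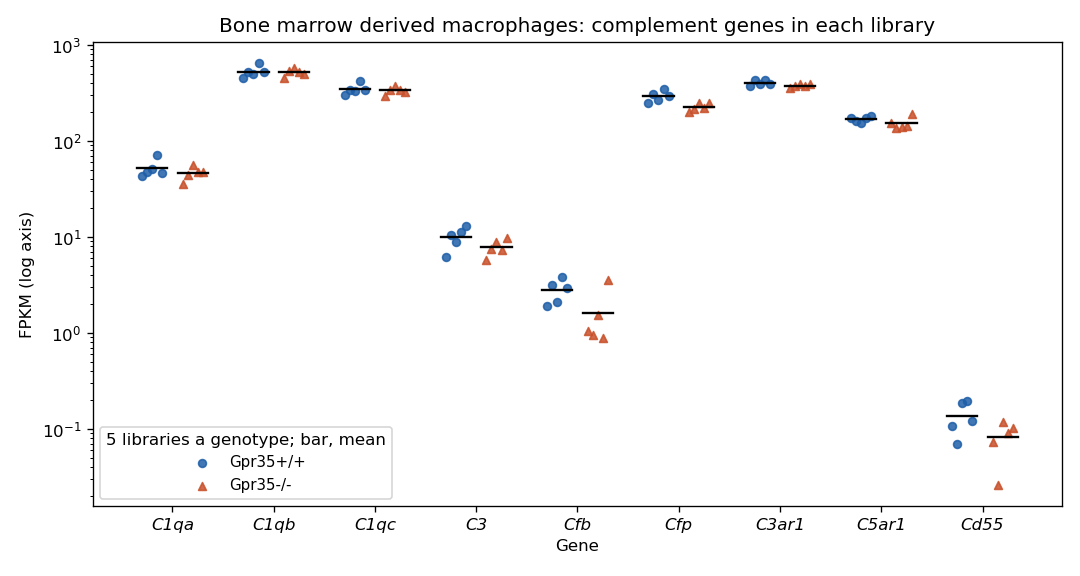
FPKM of each gene (horizontal) in each macrophage library (vertical, log axis), with circles for the 5 Gpr35+/+ and triangles for the 5 Gpr35-/- libraries and bars at the means. Gpr35-/- library 5, the rightmost triangle, stands at 3.58 FPKM for Cfb and 189 FPKM for C5ar1 while the other 4 are at 0.888 to 1.55 and 135 to 154 FPKM.

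CD55, which speeds the decay of C3 convertases on the cell's own surface, was a gene of the ileum table. Cd55 lies on the minus strand of chromosome 1 of GRCm38 from 130439027 to 130462744, with the antisense gene model Gm16083 inside its bounds, and its neighbour Cd55b is a near copy, so reads shared with it make the values uncertain. Cd55b itself had a mean of 0.209 FPKM in Gpr35+/+ ileum. Cd55 was at 130, 29.5, 32.7, 29.5 and 34.4 FPKM in Gpr35+/+ and 24.6, 56.0, 26, 34.3 and 26.4 FPKM in Gpr35-/- ileum. Gpr35+/+ library 1 stood apart, and Gpr35-/- library 2 was next. The log2 change was -0.39 (95% interval -1.29 to 0.51, adjusted p = 1), and without Gpr35+/+ library 1 it was 0.01. The same library had the highest Duox2 (206 FPKM, with a group median of 40.6) and Duoxa2 (593 FPKM, with a group median of 80.8), which encode the peroxide-making oxidase of the epithelial surface and its partner. The 12 acute phase and NF-kB response genes, which include both, summed to 1050, 488, 232, 365 and 227 FPKM in Gpr35+/+ and 582, 363, 353, 723 and 428 FPKM in Gpr35-/- ileum. Duox2 and Duoxa2 gave 206 and 593 of the 1050 FPKM in Gpr35+/+ library 1, so the sum there mostly repeats these 2 genes. The part of that response in the Cd55 values was not tested. In macrophages Cd55 was at 0.0686 to 0.196 FPKM in Gpr35+/+ and 0.0259 to 0.118 FPKM in Gpr35-/-, under the filter. The median share of intestinal transcripts there, multiplied by the mean of Cd55 in ileum, corresponds to values of similar size. These were 0.0334 to 0.136 FPKM in Gpr35+/+ and 0 to 0.0859 FPKM in Gpr35-/- libraries. The part of intestinal transcripts in the Cd55 values was not tested.

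The genotype change did not pass as different between tissues for any of the 9 genes, in a fit over all 20 libraries that called 0.0382% of 13079 genes at an adjusted p under 0.05. For Cfp the change in macrophages lay below that in ileum by 0.61 on the log2 scale (adjusted p = 0.62 in limma), and for Cfb by 0.69 (adjusted p = 0.79). At an unadjusted p under 0.05 there was 1 member, Cfp, against 6.48% of all genes. The 7 other differences ran from -0.27 for C1qa to 0.27 for Cd55. Of these, C3ar1 and C5ar1 passed the filter of this fit only through macrophages, and Cd55 only through ileum. In the other tissue their values lay under the pseudocount, which understates changes of low genes. The differences of these genes are therefore uncertain.

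Of 52 other complement genes, 50 were in each table, and 22 in ileum and 16 in macrophages were above the filter. By limma 0 of 22 and 0 of 16 were called, while 4 of 22 and 1 of 16 had an unadjusted p under 0.05, against 4.34% and 10.5% of all genes tested. Their median log2 change was 0.01 in ileum and -0.02 in macrophages. For 14 of the 50 every Gpr35+/+ macrophage library lay above every ileum library, for 16 the reverse held, and 20 overlapped, beside the 34% and 18.9% of all rows given above.

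Among the initiators of the classical and lectin pathways, ileum held C2 (28.4 ± 4.36 FPKM in Gpr35+/+, SD, n = 5), the partner of C4 in the classical convertase, and Mbl2, which encodes a mannose-binding lectin. The gene spans bases 30232942 to 30239687 of chromosome 19 (GRCm38). Mbl2 was at 9.69, 3.45, 16.7, 1.44 and 3.16 FPKM in Gpr35+/+ and 24.4, 19.6, 30.1, 24.6 and 35.0 FPKM in Gpr35-/- ileum, so that every Gpr35-/- library lay above every Gpr35+/+ library, as for 0.406% of the genes tested. The log2 change was 2.29 (standard error 0.52) with an adjusted p of 0.90 in limma, and 0.01 when the spread was taken over all 20 libraries. That spread includes macrophages, where Mbl2 had means of 0.0321 FPKM in Gpr35+/+ and 0.0155 FPKM in Gpr35-/-. Values so far under the pseudocount vary little, so the p of 0.01 can be too small. Macrophages held the collectin Colec12 (11.0 FPKM) and the ficolins Fcna (4.08 FPKM) and Fcnb (4.29 FPKM), all means of Gpr35+/+ libraries, and had 0.189 FPKM of C2.

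Of the terminal pathway, whose proteins form the membrane attack complex, C8g alone passed the filter in either tissue, at 0.909 FPKM in Gpr35+/+ ileum and 1.72 FPKM in Gpr35+/+ macrophages. Cfd, the protease that activates factor B, was at 6.39 FPKM in Gpr35+/+ ileum and 0.0201 FPKM in macrophages. Among soluble regulators ileum held Clu (9.45 FPKM in Gpr35+/+) and Cpn1 (2.96 FPKM), which encodes the catalytic subunit of an anaphylatoxin-inactivating carboxypeptidase. Clu was at 7.20, 15.1, 6.75, 9 and 9.28 FPKM in Gpr35+/+ and 27.8, 8.33, 19.5, 16.1 and 28.2 FPKM in Gpr35-/- ileum, a log2 change of 0.98 (adjusted p = 1). Cpn1 was at 3.86, 3.00, 1.33, 3.01 and 3.61 FPKM in Gpr35+/+ and 0.58, 1.03, 1.07, 0.932 and 0.928 FPKM in Gpr35-/- ileum, so that the highest Gpr35-/- value was under the lowest Gpr35+/+ value, as for 0.449% of the genes tested. Its log2 change was -1.25 with an adjusted p of 0.19 in limma, and it was not called in 17 of 20 alternatives. In the other 3 the adjusted p was 0.036 with array weights, 0.0019 without Gpr35+/+ library 3, which held the lowest Gpr35+/+ value, and 0.00079 when the spread was taken over all 20 libraries. That spread includes macrophages, where Cpn1 had means of 0.0518 FPKM in Gpr35+/+ and 0.0206 FPKM in Gpr35-/-. Values so far under the pseudocount vary little, so this last p can be too small.

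Among the 7 membrane regulators other than Cd55, Cr1l, the mouse gene for the C3 regulator Crry, was the highest in both tissues, at 34.5 FPKM in Gpr35+/+ ileum and 66.3 FPKM in Gpr35+/+ macrophages, followed by Cd59a (0.619 and 8.48 FPKM). Cr1l in ileum had a log2 change of 0.20 (adjusted p = 1). Among receptors Calr, which encodes the C1q-binding chaperone calreticulin, was at like levels in Gpr35+/+ ileum (496 ± 58.5 FPKM) and macrophages (489 ± 94.0 FPKM), whereas the complement receptor 3 subunits Itgb2 (3.84 and 353 FPKM) and Itgam (2.32 and 137 FPKM) and the endocytic receptor Lrp1 (23.2 and 117 FPKM) were higher in the macrophage table. Cd93 was at 87.0, 96.7, 95.4, 93.8 and 92.9 FPKM in Gpr35+/+ and 103, 101, 96.1, 103 and 98.5 FPKM in Gpr35-/- macrophages. Its log2 change was 0.11 (standard error 0.04, adjusted p = 0.37).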

How the data were processed

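Poly(A)-selected RNA was sequenced by the authors as stranded single-end libraries. The authors deposited 1 table of FPKM for each tissue, and the processing notes name GRCm38. No aligner, counting tool or annotation is named there (not given in the sources used here). The 9 members and all lists were chosen with earlier results of these data known. Dates stand in place of names in 27 ileum rows, which were left out.

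The FPKM as deposited were tested as log2(FPKM + 0.5) in limma 3.58.1 (R 4.3.3) with trend and robust settings, within a tissue, over genes at 0.5 FPKM or more in at least 5 libraries, with Benjamini-Hochberg adjustment over all genes tested and a threshold of 0.05. All tests were two-sided. The pseudocount understates changes of low genes. Also left out were 5 rows in ileum and 2 in macrophages that one genotype listed at 0 throughout while the other had at least 1 FPKM in each library. The tables were scaled separately, so levels across tissues were not tested. The design text names 5 mice per group and do not say whether libraries were prepared together. Correlations used 100000 permutations. No depth is known, so no counting interval is given. The script was tested on simulated data.

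Named genes were the 9 members, other complement genes with an unadjusted p under 0.05, the 2 highest by mean FPKM in each role and tissue, the 5 genes most like the C1q chains and C3, and Gpr35. C1qbp, which was close to the second highest receptor in ileum, was left out. Fcna, Itgam, Mpeg1, Cd14, Mertk, Col3a1, Duox2, Duoxa2 and Cd55b were named after their values were seen. A gene that the rule picks is not reported here. Positions are from GENCODE release 21, and promoters from RefSeq. Alternatives changed the pseudocount, filter, normalization, library weights or spread, added the replicate number as a block, or dropped libraries. Scripts ran in Python 3.11.15.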

Additional observations from a re-analysis of the deposited data

Results flagged for a closer look

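In 36 groups of 5 values (9 genes, 4 groups), 3 had 1 library far from the rest by Dixon's ratio of the gap to the range (critical value 0.71), where chance gives about 1 in 20. Cd55 in Gpr35+/+ ileum had a ratio of 0.951, with library 1 at 130 FPKM and the others at 29.5 to 34.4 FPKM. Cfb in Gpr35-/- macrophages had a ratio of 0.754, with library 5 at 3.58 FPKM and the others at 0.888 to 1.55 FPKM. C1qa in Gpr35+/+ macrophages had a ratio of 0.723, with library 4 at 71.4 FPKM and the others at 43.3 to 51.1 FPKM. The causes were not tested.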

How the results depend on the processing

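The count of members called stayed at 0 in ileum under all 21 alternatives and in macrophages under 21 of 22, the exception being array weights, which called 1 member (Cfp). Other complement genes called in ileum became 1 with array weights and 2 with all 20 libraries in 1 fit (Mbl2 and Cpn1), and 0 to 1 with a library left out, and stayed at 0 in macrophages. Mbl2 and Cpn1 were barely expressed in macrophages, which can lower the shared spread of that fit. The number of members with the higher mean in macrophages stayed at 7, and 7 of 8 correlations passed by Pearson r with or without the genotype means. By Spearman rho C1qa with C1qb in macrophages also did not pass (adjusted p = 0.063 by permutation).

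Over all genes, the 5 calls in ileum became 1 with at least 1 FPKM in every library, 11 with rows listed at 0 kept, 33 with all 20 libraries in 1 fit, and 2 to 9 with a library left out. The 6 calls in macrophages became 3 with at least 1 FPKM in every library, 128 with array weights, 11 with all 20 libraries in 1 fit, and 2 to 33 with a library left out, the 33 without Gpr35-/- library 5. The 5 calls for the difference between tissues became 2 with a pseudocount of 0.1, 8 without a filter, 0 with at least 1 FPKM in every library, 12 with rows listed at 0 kept, 25 with array weights, 2 without macrophage Gpr35-/- libraries 2, 3 and 4 (chosen after seeing the data), and 1 to 37 with a library left out.

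Replicate numbers gave no clear pairing, as same-numbered libraries correlated at -0.422 to 0.008 in ileum and -0.157 to 0.269 in macrophages after group means were removed. For macrophage Gpr35+/+ libraries 4 and 5 the best-correlated Gpr35-/- library had the same number, at 0.083 and 0.269. The check cannot settle whether macrophage libraries were paired. With the replicate block 3 genes were called in ileum, 6 in macrophages and 2 between tissues, and no member.

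Small log2 changes turned sign. C1qb became 0.0392 in ileum with array weights and 0.0555 in macrophages with quantile normalization, and C5ar1 in macrophages became 0.0156 without Gpr35-/- libraries 2, 3 and 4. The difference between tissues became -0.0219 for C1qb and -0.0423 for C3ar1 with array weights, and -0.0951 for C1qb and 0.0035 for C5ar1 without those 3 libraries. With a library left out, the log2 changes in ileum ran from -0.0001 to 0.30 for C1qa, -0.18 to 0.11 for C1qb, -0.0853 to 0.212 for C1qc, -0.39 to 0.31 for C3, -0.145 to 0.0413 for Cfb and -0.593 to 0.0145 for Cd55, and in macrophages from -0.0702 to 0.0518 for C1qb and -0.0902 to 0.0274 for C1qc. The differences between tissues ran from -0.13 to 0.16 for C1qb, -0.255 to 0.0424 for C1qc, -0.615 to 0.0858 for C3, -0.0316 to 0.149 for C3ar1 and -0.14 to 0.47 for Cd55. The log2 changes of Cfp (-0.42 to -0.30) and Cfb (-1.0 to -0.61) in macrophages kept their direction. The causes were not tested.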
